A study of Saccharomyces cerevisiae with 6 samples.

Results

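The promoters of 34 heat-shock protein and chaperone genes of budding yeast were examined in CUT&RUN peak lists for the transcription factors Pdr1 and Pdr3. The genes are a list of names that uses no peak value, drawn up with earlier results of these lists known, and all 34 were found among the 6002 nuclear protein-coding genes of the R64 annotation. A gene was counted when the summit of a peak, its highest point, lay within 1000 bp upstream of the annotated start. CUT&RUN uses an antibody to bring a nuclease to the tagged protein in permeabilised nuclei and sequences the DNA that is cut loose. The Pdr1 group was the strain labelled YRP10 probed with anti-c-Myc (2 libraries, replicates 1 and 2), and the Pdr3 group was the strain labelled Pdr3_3xmyc also probed with anti-c-Myc (1 library). The labels name the c-Myc antibody by 2 different catalogue numbers. Each strain was also probed with rabbit IgG, and no IgG values were analysed here. All cultures grew in YPD, a rich medium, and the labels name no heat or drug treatment, so "stress-induced" below refers to the known behaviour of a gene and not to a condition of the cultures. The labels give no genotype for YRP10 beyond its name.

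Chaperones bind unfolded proteins and help them to fold, to be transported or to be cleared. Hsp70 proteins do so in cycles of ATP hydrolysis that are started by J-proteins and ended by nucleotide exchange factors, Hsp90 acts later on signalling proteins with the help of co-chaperones, and disaggregases and small heat-shock proteins act on aggregates. Many of these genes are controlled by the heat-shock factor Hsf1 or by the general stress factors Msn2 and Msn4, and several are strongly transcribed in growing cells. A separate link to drug resistance is known: Ssz1, first described as Pdr13, and its partner Zuo1 can activate Pdr1, and the Hsp70 protein Ssa1 has been reported to hold Pdr3 in check. These links act on the proteins and make no statement about the promoters of the chaperone genes.

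Most of the chaperone promoters had no listed peak. A summit lay upstream of 5 of the 34 genes in Pdr1 replicate 1 (14.7%, 95% Wilson interval 6.45 to 30.1%), against a background of 15.5% of all protein-coding genes (931 of 6002). In Pdr1 replicate 2 it was 4 of the 34 genes (11.8%, 4.67 to 26.6%), against 10.2% of all genes (613 of 6002). Both shares were near the background. The 4 genes of replicate 2 were MDJ1, HSP12, HSP30 and CPR1, and all 4 also had a summit in replicate 1, which added HSP31. In both replicates together the count was thus 4 of 34 (11.8%), against 8.95% of all genes. The Pdr3 list, which held 7 peaks, had a summit upstream of 0 of the 34 genes, against 0.167% of all genes (10 of 6002). The other 29 genes had no base of a Pdr1 peak in their window in either replicate. Most protein-coding genes also lacked one in a given replicate. Of all 6002 genes, 1020 had a peak base in their window in replicate 1 and 665 in replicate 2. Of the 34 genes, 5 and 4 had one, so the lack of a peak base does not set the chaperone genes apart. The intervals cover counting error only, and neighbouring genes can share a summit.

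**Figure D1:**
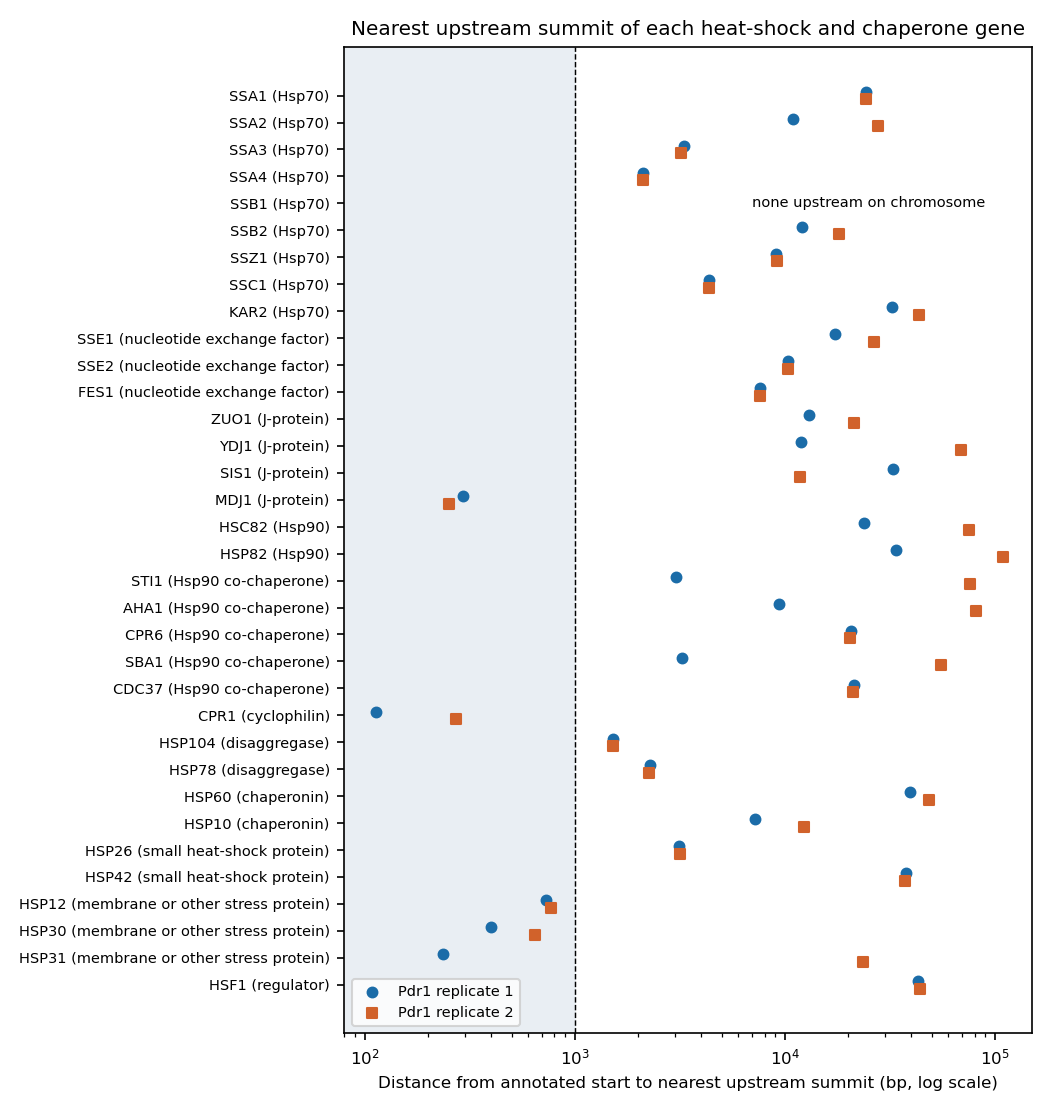
Distance in bp (log scale) from the annotated start of each of the 34 genes to the nearest summit upstream on the same chromosome, in Pdr1 replicate 1 (circles) and replicate 2 (squares), with the 1000 bp window shaded. MDJ1, HSP12, HSP30 and CPR1 lie in the window in both replicates and HSP31 in replicate 1, while the nearest gene outside it is HSP104, at 1524 and 1525 bp.

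The 4 genes with a summit in both replicates corresponded to 3 regions, because MDJ1 and HSP12 share 1. MDJ1 (YFL016C) encodes a J-protein of the mitochondrial matrix, and HSP12 (YFL014W) a small hydrophilic stress protein that associates with membranes. The genes run in opposite directions, 1019 bp apart, with the annotated gene YFL015C between them. The replicate 1 peak lay on chromosome VI from 106392 to 106675 and had a fold enrichment of 3.03 (summit at base 106530). The replicate 2 peak lay from 106381 to 106654 and had a fold enrichment of 6.27 (summit at base 106489). The summits were 41 bp apart, and the overlap covered 92.6% of the replicate 1 peak and 96.0% of the replicate 2 peak. The position was therefore similar in both lists. The peak held rank 717 of 792 by fold enrichment in replicate 1 and rank 92 of 485 in replicate 2. Its −log10 q was 11.3 in replicate 1 and 27.1 in replicate 2. Measured from MDJ1 the summits lay 294 bp (replicate 1) and 253 bp (replicate 2) upstream, and measured from HSP12 they lay 726 bp and 767 bp upstream. The region was thus closer to MDJ1 than to HSP12. Both summits lay inside YFL015C.

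HSP30 (YCR021C), which encodes a stress protein of the plasma membrane, had the chaperone gene peak with the highest fold enrichment in replicate 1. That peak lay on chromosome III from 157394 to 157961, with a fold enrichment of 7.17, a −log10 q of 30.6 and rank 152 of 792. In replicate 2 the peak lay from 157505 to 157816, with a fold enrichment of 4.46, a −log10 q of 12.7 and rank 286 of 485. The replicate 2 peak lay entirely within the replicate 1 peak, but the summits were 250 bp apart, at 398 bp (replicate 1) and 648 bp (replicate 2) upstream of the start. Across all 409 Pdr1 regions shared by the replicates the median distance between summits was 27 bp, and 340 regions (83.1%) had summits within 100 bp of each other. The HSP30 region was not among these 340. Both HSP30 summits lay inside the annotated gene YCR022C, and no other gene had them in its upstream window.

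CPR1 (YDR155C), which encodes the abundant cytosolic cyclophilin bound by the drug cyclosporin, had weak peaks in both replicates. The replicate 1 peak lay on chromosome IV from 769064 to 769304, with a fold enrichment of 3.13, a −log10 q of 10.6 and rank 706 of 792. The replicate 2 peak lay from 769256 to 769353, with a fold enrichment of 2.91 and rank 460 of 485. Its −log10 q of 5.05 was the lowest in the replicate 2 list. The peaks overlapped by 49 bp, and their summits lay 113 bp (replicate 1) and 272 bp (replicate 2) upstream of CPR1, 159 bp apart. The same summits lay upstream of the divergent gene RPA14, which encodes a subunit of RNA polymerase I, and of YDR157W. Among the 3 regions, CPR1 was the one whose summits lay between annotated protein-coding genes. Whether YFL015C and YCR022C are functional genes was not examined here.

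HSP31 (YDR533C), a member of the DJ-1 family that detoxifies methylglyoxal and acts as a chaperone, had a peak in replicate 1 alone. It lay on chromosome IV from 1502305 to 1502709, with a fold enrichment of 6.31, a −log10 q of 17.2, rank 217 of 792 and its summit 236 bp upstream of the start. The nearest summit upstream of HSP31 in replicate 2 was 23414 bp away. Its relatives HSP32, HSP33 and SNO4 had no upstream summit in any of the 3 lists. They are near-identical to each other, and how reads were assigned among such copies is not stated.

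**Figure D2:**
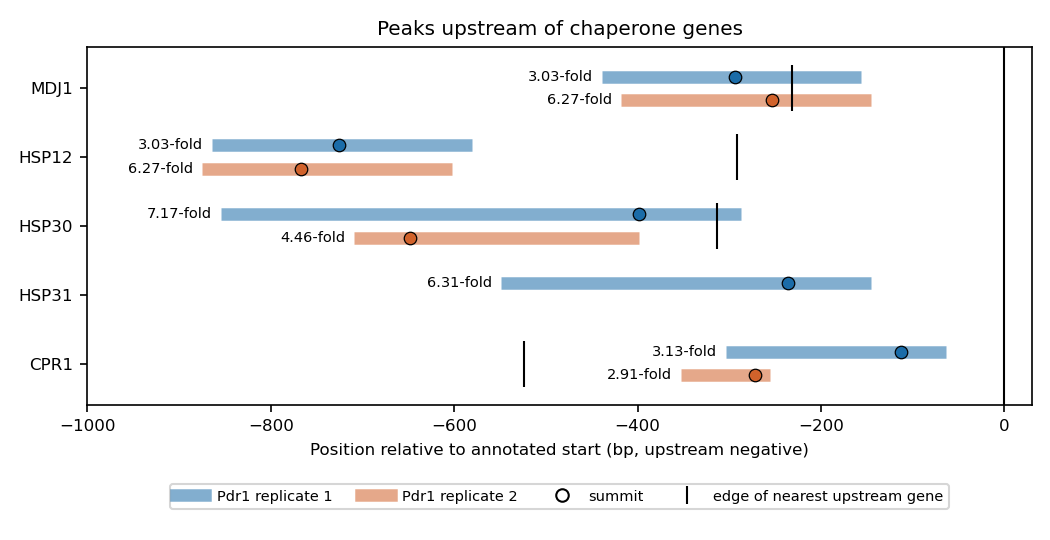
Peaks upstream of MDJ1, HSP12, HSP30, HSP31 and CPR1, as position in bp relative to the annotated start (upstream negative). Bars are peaks of Pdr1 replicate 1 (upper) and replicate 2 (lower) with their fold enrichment, points are summits, and ticks mark the edge of the nearest upstream gene where it is within 1000 bp. The MDJ1 and HSP12 rows show the same pair of peaks. The summits of MDJ1, HSP12 and HSP30 lie beyond the edge of the neighbouring gene, and those of CPR1 before it.

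The chaperone gene peak of best rank was HSP30 in replicate 1 and MDJ1/HSP12 in replicate 2. Of the 4 peaks in replicate 1 (0.505% of the list), HSP30 and HSP31 lay above the list median of 4.86-fold and the MDJ1/HSP12 and CPR1 peaks below it. Of the 3 peaks in replicate 2 (0.619% of the list), MDJ1/HSP12 lay above the list median of 4.85-fold and HSP30 and CPR1 below it. Counted per gene, the median fold enrichment was 3.13 in replicate 1 (5 genes) and 5.36 in replicate 2 (4 genes), against 5.03 and 4.95 for the strongest upstream peak of all genes that had one. Both medians count the MDJ1/HSP12 peak for each of its genes. Over separate peaks the median was 4.72 in replicate 1 (4 peaks) and 4.46 in replicate 2 (3 peaks). The list medians over all peaks were 4.86 and 4.85. In replicate 2 the direction thus depended on whether genes or peaks were counted. As a measure of strength in the same libraries, the peak upstream of PDR5, the drug exporter gene that is the best-known Pdr1 target, had a fold enrichment of 12.8 in replicate 1 and 23.1 in replicate 2. Because the lists differ in length, the share of peaks with a higher fold enrichment was compared. For MDJ1/HSP12 it was 90.4% in replicate 1 and 18.8% in replicate 2, for HSP30 19.1% and 58.8%, and for CPR1 89.0% and 94.6%, against 3.16% and 0.412% for PDR5. Fold enrichments are values of the authors' peak caller, and their reference is not stated.

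**Figure D3:**
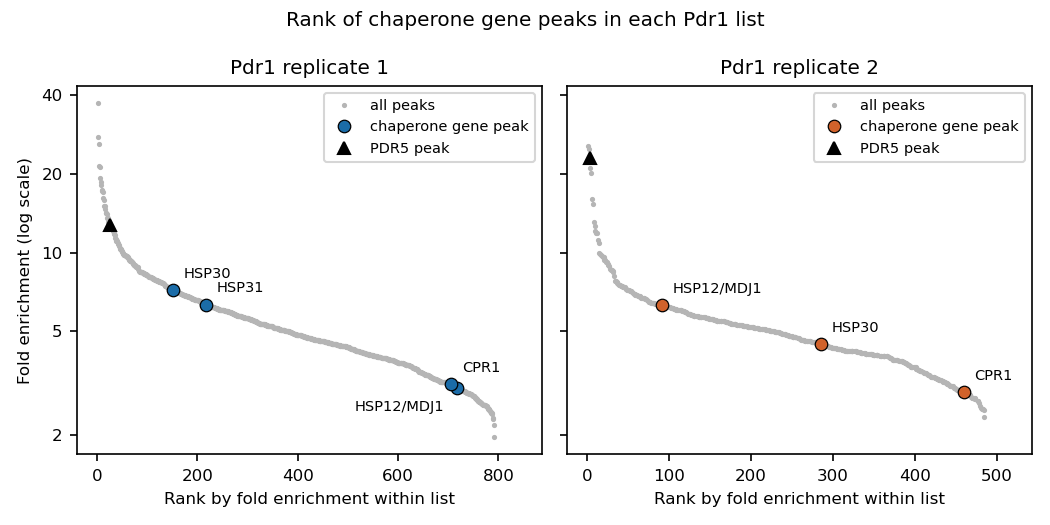
Fold enrichment (log scale) of every peak against its rank within the Pdr1 replicate 1 list (792 peaks, left) and the replicate 2 list (485 peaks, right). Coloured points are the peaks upstream of chaperone genes and the triangle is the PDR5 peak. In the MDJ1/HSP12 case 90.4% of the replicate 1 peaks and 18.8% of the replicate 2 peaks were stronger, and in the CPR1 case 89.0% and 94.6%.

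The stress-induced and constitutive copies of duplicated chaperones were compared next. The stress-induced copies are SSA3 and SSA4 (cytosolic Hsp70), HSP82 (Hsp90) and SSE2 (the Hsp110 exchange factor), and their constitutive counterparts are SSA1, SSA2, HSC82 and SSE1. A summit lay upstream of 0 of the 4 stress-induced copies and of 0 of the 4 constitutive copies in every list, beside a background of 15.5% of all genes in replicate 1, 10.2% in replicate 2 and 0.167% in the Pdr3 list. The 95% Wilson interval of 0 of 4 reaches 49.0%, so these counts leave a wide range on both sides. The distances to the nearest summit farther upstream were as follows. SSA4 (YER103W) had a summit 2110 bp upstream in replicate 1 and 2111 bp upstream in replicate 2, beyond its neighbour RPS8B. That peak was 4.72-fold enriched in replicate 1 and 6.0-fold in replicate 2, and its summit was upstream of RPS8B, a ribosomal protein gene, and of AST2. SSA3 (YBL075C) lies near the other copy of that ribosomal gene, RPS8A. Its nearest summit was 3313 bp (replicate 1) and 3200 bp (replicate 2) upstream, in the upstream windows of RPS8A, YBL071C-B and KTI11. The replicate 1 summit was also upstream of AST1. Those peaks had fold enrichments of 3.49 and 4.02. The constitutive SSA1 (YAL005C), which shares a 742 bp divergent promoter with the translation factor gene EFB1, had no summit for 24194 bp (replicate 1) and 24196 bp (replicate 2). For SSA2 the distances were 10899 and 27629 bp. The Hsp90 pair was also far from the nearest upstream summit: 33738 and 109238 bp for HSP82, and 23864 and 75194 bp for HSC82. In the Hsp110 pair the distances were 10388 and 10353 bp for SSE2, and 17353 and 26584 bp for SSE1.

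Among the chaperone classes, the Hsp70 class (9 genes), the nucleotide exchange factors (3), the Hsp90 proteins (2), their co-chaperones (5), the disaggregases (2), the mitochondrial chaperonin (2) and the small heat-shock proteins (2) had no upstream summit in any list. With a background of 15.5% of all genes in replicate 1 and 10.2% in replicate 2, counts of 0 in classes this small do not set them apart. Of the ribosome-associated Hsp70 genes, SSB1 had no summit between its start and the upstream end of its chromosome in either Pdr1 list, and SSB2 had its nearest at 12033 bp (replicate 1) and 18053 bp (replicate 2). Of the 4 J-protein genes, MDJ1 had a summit, while YDJ1, SIS1 and ZUO1 did not. Of the 3 genes for membrane-associated or other stress proteins, HSP12 and HSP30 had one in both replicates and HSP31 in replicate 1. The genes whose proteins act on Pdr1, SSZ1 and ZUO1, had none: the nearest upstream summits lay 9062 and 9157 bp from SSZ1 and 13088 and 21325 bp from ZUO1 in replicates 1 and 2. The regulator HSF1 had its nearest upstream summit at 42920 and 43934 bp. In replicate 1 a 6.58-fold peak had its summit 36 bp before the 3′ end of HSF1, in the upstream window of the next gene, AFT1. It was the only summit of either Pdr1 list that lay inside one of the 34 genes (2.94%, against 2.20% of all genes in replicate 1).

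The remaining chaperone genes without an upstream peak lay at very different distances from the nearest summit upstream of their starts. Of the organelle Hsp70 genes, SSC1 of the mitochondrial matrix had its nearest at 4373 bp (replicate 1) and 4349 bp (replicate 2), in the upstream windows of CYC1 and ANB1. KAR2, which encodes the Hsp70 of the endoplasmic reticulum, had its nearest at 32414 and 43420 bp. The exchange factor gene FES1 was 7592 and 7610 bp from a summit. For these genes both replicates placed the nearest summit outside the promoter. Among the Hsp90 co-chaperone genes, the cyclophilin gene CPR6 had distances of 20625 and 20301 bp, and CDC37, whose product recruits kinases to Hsp90, of 21215 and 21056 bp. SBA1, which encodes the yeast p23, had a summit 3236 bp upstream in replicate 1 and 55581 bp upstream in replicate 2. The mitochondrial chaperonin gene HSP60 had distances of 39281 and 48286 bp. Its co-chaperonin gene HSP10 had distances of 7176 and 12294 bp, and the small heat-shock protein gene HSP42 of 37508 and 37349 bp.

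The window of 1000 bp set apart few genes. The outermost summits inside it were those of HSP12, at 726 and 767 bp. Just outside it was HSP104 (YLL026W), the gene of the cytosolic disaggregase, with a summit at 1524 bp in replicate 1 (8.05-fold, rank 107) and 1525 bp in replicate 2 (5.24-fold, rank 192). This region, on chromosome XII at bases 87099 and 87098, was in the upstream window of ISA1, the gene between it and HSP104. HSP104 also lay near a known Pdr1 target: the peak upstream of TPO1 was 4290 bp (7.71-fold) and 4329 bp (11.9-fold) from its start. HSP78, which encodes the mitochondrial disaggregase, had summits at 2285 and 2260 bp that were upstream of YAP6 (5.59-fold and 9.63-fold). HSP26, which encodes a small heat-shock protein, had summits at 3134 and 3153 bp that were upstream of the amino acid permease gene TAT1. Each of these summits was closer to the start of another gene. On the other side of the genes, AHA1, which encodes the activator of the Hsp90 ATPase, had a summit 186 bp (replicate 1) and 144 bp (replicate 2) past its 3′ end, in the upstream window of ADR1. STI1, which encodes the adaptor between Hsp70 and Hsp90, had one 297 and 316 bp past its end, in no upstream window.

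Over the 33 chaperone genes with a summit anywhere upstream on their chromosome (all but SSB1), the median distance to the nearest one was 9336 bp in replicate 1 and 20301 bp in replicate 2. Over all protein-coding genes with such a summit it was 10138 bp (5824 genes) and 16854 bp (5762 genes). Within 5000 bp upstream, 13 chaperone genes (38.2%) had a summit in replicate 1 and 10 (29.4%) in replicate 2, against 32.4% and 22.9% of all genes. The annotated upstream neighbour was transcribed divergently for 12 chaperone genes (35.3%) and in the same direction for 22 (64.7%). Among all genes, 52.1% had a divergent neighbour. YFL015C and YCR022C were counted as neighbours. In the replicate 1 list, 2 of the 12 divergent and 3 of the 22 tandem chaperone genes had a summit, against 553 of 3120 divergent and 378 of 2873 tandem genes among all. In the replicate 2 list it was 2 of 12 and 2 of 22, against 385 of 3120 and 228 of 2873. Counts this small do not set the chaperone genes apart by orientation.

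Chaperone promoters were then set beside the ribosomal protein and glycolytic promoters of the same lists. Ribosomal protein and glycolytic genes are strongly transcribed in growing cells, as are several of the chaperone genes. The chaperone list also holds stress-induced genes and was not limited to active promoters. In replicate 1, an upstream summit was listed for 5 of 34 chaperone genes (14.7%), against 97 of 137 cytosolic ribosomal protein genes (70.8%, 62.7 to 77.8%) and 16 of 21 genes of glycolysis and fermentation (76.2%, 54.9 to 89.4%). In replicate 2 the counts were 4 of 34 (11.8%), 73 of 137 (53.3%, 45.0 to 61.4%) and 16 of 21 (76.2%). The Wilson intervals treat genes as independent, although neighbouring genes can share a summit, so they do not serve to compare the classes. No test was made of these differences, because the classes were chosen with earlier results of the same lists known. Among genes with a summit, the median fold enrichment was 3.13 for the chaperone genes, 4.63 for the ribosomal protein genes and 3.32 for the glycolytic genes in replicate 1, and 5.36, 4.71 and 4.92 in replicate 2. The lengths of the upstream spaces differed as well. The median space to the neighbour was 383 bp for tandem chaperone genes and 400 bp for all tandem genes. It was 547.5 bp for tandem ribosomal protein genes and 630 bp for tandem glycolytic genes. For divergent genes it was 662 bp (chaperone), 508 bp (all genes), 721 bp (ribosomal protein) and 1343 bp (glycolytic). The part these lengths played in the counts was not tested. No transcription data were analysed here, so "strongly transcribed" is background knowledge.

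**Figure D4:**
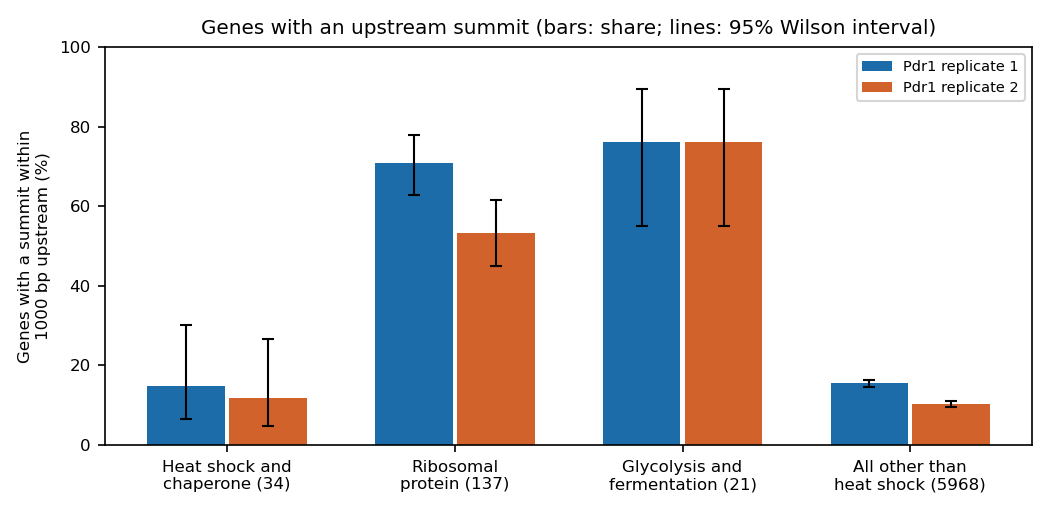
Share of genes (%) with a summit within 1000 bp upstream in Pdr1 replicate 1 (left bar of each pair) and replicate 2 (right bar), for 34 heat-shock and chaperone genes, 137 ribosomal protein genes, 21 glycolytic and fermentative genes, and the 5968 genes outside the chaperone list. Lines are 95% Wilson intervals. The chaperone genes, at 14.7% and 11.8%, sit beside the genes outside the list, at 15.5% and 10.2%, and below the other named classes.

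A wider list of 65 further folding genes was examined in the same way. A summit lay upstream of 5 of the 65 in replicate 1 (7.69%, 3.33 to 16.8%; background 15.5%) and of 1 in replicate 2 (1.54%, 0.272 to 8.21%; background 10.2%), and of none in the Pdr3 list. The gene in both replicates was PDI1, which encodes the disulfide isomerase of the endoplasmic reticulum. Its peaks were 3.25-fold (rank 680) and 3.83-fold (rank 384) enriched, with summits 404 and 358 bp upstream, and both summits were also upstream of the glucokinase gene GLK1. The other 4 were CCT6, FPR1, SIL1 and UBI4, in replicate 1 alone, at 3.87-fold to 4.68-fold. Among all 6002 genes, 931 had a summit in replicate 1 and 537 had one in both replicates. A summit in replicate 1 alone was thus not particular to folding genes. No prefoldin gene (6), other J-protein gene (17) or other Hsp90 co-chaperone gene (7) had a summit, and of the 8 genes of the cytosolic CCT chaperonin CCT6 had one. Of 18 genes reported to depend on Hsf1 in growing cells, 14 of which are among the 34, 1 had a summit in each Pdr1 replicate. That share was 5.56% (0.988 to 25.8%), against 15.5% of all genes in replicate 1 and 10.2% in replicate 2. The gene was MDJ1, through the region it shares with HSP12.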

How the data were processed

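The deposited files are narrowPeak lists, 1 for each c-Myc library, of 792 and 485 peaks (Pdr1 replicates 1 and 2) and 7 peaks (Pdr3). The submitters' processing notes name Trimmomatic 0.33, Bowtie2, Picard, deepTools and MACS2 2.1.1 and the builds R64 and sacCer3, without roles, and do not state how IgG or spike-in reads were used. The deposited fold enrichment, a ratio on a linear scale, describes and ranks peaks within a list. The deposited −log10 q-value was used for a filter, no use was made of the deposited −log10 p-value, and the deposited score equals 10 times the −log10 q, rounded down. The lists hold no read counts, so depth is unknown, and a missing peak cannot be told apart from one under the authors' threshold. Nothing in the labels says that the 2 Pdr1 libraries came from separate cultures.

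Genes came from a RefSeq table of R64, with strand read from the systematic name. Coordinates count from 1. Pdr1 peaks overlapping by at least 1 bp were merged into shared regions. Shares carry 95% Wilson intervals (SciPy 1.17.1, pandas 2.3.3, Python 3.11.15). No test across genes was made, since the genes are not replicates. The members, gene lists and classes were chosen with earlier results of these data known. The genes named are all 34 members, genes sharing their summits, genes of the wider list with a summit in both replicates, and PDR5. Other genes were named after their values were seen. Gene assignment was tested on simulated data. Promoter sequences were not analysed here.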

Additional observations from a re-analysis of the deposited data

How the results depend on the processing

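Of 66 recomputed counts and medians, 54 differed from the reported count by less than a factor of 1.5 or, for medians, by less than the SD of the replicate medians (1.58). That SD rests on 2 values and is a wide limit. The replicate 2 median of 5.36 counted as unchanged at 4.46 over separate peaks. Of these, the first lies above the list median of 4.85 and the second below it. The 54 include the Pdr3 counts and those of both sets of copies, which were 0 under every setting tried. Counts of 0 in lists or sets this small had little room to move. The rest moved. With 500 bp upstream, 2 genes had a summit in replicate 2 and 2 in both replicates (CPR1 and MDJ1), against 6.48% and 5.28% of all genes. With windows ended at the neighbouring gene, the counts were 2 in replicate 1 (CPR1 and HSP31), 1 in replicate 2, 1 in both and 1 for shared regions (CPR1), against 13.4%, 8.83%, 7.56% and 7.58%; the summits of MDJ1, HSP12 and HSP30 lie inside YFL015C and YCR022C. With equal numbers of peaks, 2 genes kept a summit in replicate 1 (HSP30 and HSP31), against 9.90%, and 1 (HSP30) had one in both replicates and in a shared region, against 6.06% and 6.0%. With summits within 100 bp, 2 genes had a shared region (MDJ1 and HSP12), against 7.53%. The replicate 1 median of 3.13 became 4.72 over separate peaks and 4.72 with 500 bp upstream, as the MDJ1/HSP12 peak was then counted for 1 gene. Leaving out a Pdr1 replicate gave 4 to 5 genes, against 10.2% and 15.5% of all genes, which restates the counts of the replicate that was kept. Windows of 2000 bp, which added HSP104, and any peak base in the window were chosen after the data were examined. No paired analysis was possible because no peak list of an IgG library, whose replicate numbers match those of Pdr1, was used here.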
